A study of Mus musculus with 18 samples.

Results

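Lateral and extraembryonic mesoderm was compared with paraxial mesoderm among single cells of mouse embryos at embryonic day (E) 7.5. Both groups were defined by transcripts of 4 genes. A cell entered the lateral gate with at least 2 transcripts of Hand1 and Foxf1 together and none of Tbx6 or Dll3, and the paraxial gate with at least 2 transcripts of Tbx6 and Dll3 together and none of Hand1 or Foxf1. Of the 429 E7.5 cells with at least 2000 nuclear transcripts, 73 fell in the lateral gate and 70 in the paraxial gate, 143 cells of 972 such cells in the whole series. The 4 gate genes chose the cells, so their levels are given as a description and they took part in no test.

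All embryos were C57BL/6 wild type and untreated. The E7.5 embryos were cut below the chorion, so that extraembryonic mesoderm stayed in the material. Embryos of 1 or 2 litters were pooled, and their cells were sorted by flow cytometry into 12 libraries of 96 barcodes each. The series also holds 6 libraries of hand-picked E6.75 cells, which were not used here. Nothing in the labels says that the libraries came from separate embryos, so the p-values measure the spread between libraries, which may be technical.

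Mesoderm forms as epiblast cells pass through the primitive streak, and the place and time at which a cell leaves the streak go with its later fate. Cells that leave early build the extraembryonic mesoderm of the amnion, allantois and yolk sac, and with the lateral plate they give rise to heart, vessels, blood and body wall. Paraxial mesoderm lies beside the midline and is cut into somites by a molecular clock that runs on Notch, WNT and FGF signalling, while high BMP signalling is known for favouring lateral and extraembryonic fates. Hand1 and Foxf1 encode transcription factors of lateral and extraembryonic mesoderm. Tbx6 encodes the T-box factor that specifies paraxial mesoderm, and Dll3 encodes a divergent Notch ligand of the presomitic mesoderm.

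The gates were filled unevenly by their genes. In the lateral gate, 42 of 73 cells held both Hand1 and Foxf1, 30 held Hand1 alone and 1 held Foxf1 alone. In the paraxial gate, 48 of 70 cells held both Tbx6 and Dll3, 14 held Dll3 alone and 8 held Tbx6 alone. Hand1 therefore carried most of the lateral gate, while both genes contributed to the paraxial one. The summed gate transcripts had a median of 9 and a maximum of 89 in lateral cells, and a median of 7 and a maximum of 37 in paraxial cells. Just inside the threshold, 17 lateral and 11 paraxial cells held exactly 2 gate transcripts. Just outside it, 33 cells held a lone transcript of the lateral pair and 31 a lone transcript of the paraxial pair.

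Co-detection of the 2 pairs was common. There were 106 E7.5 cells with transcripts of both pairs, of which 36 held at least 2 of each, and 116 cells with none of the 4 genes. Over the 11 libraries with kept cells, the lateral gate held 16.2% ± 8.21 (SD, n = 11) of a library's cells and the paraxial gate 15.99% ± 11.01 (SD, n = 11). The lateral share ran from 0% to 30.4% and the paraxial share from 0% to 40.0%. Median depth was 26236 transcripts per cell in the lateral gate, 34433 in the paraxial gate and 15963 in cells with none of the 4 genes. It was higher, at 42890, in cells with both pairs, so depth differed between the classes.

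**Figure D1:**
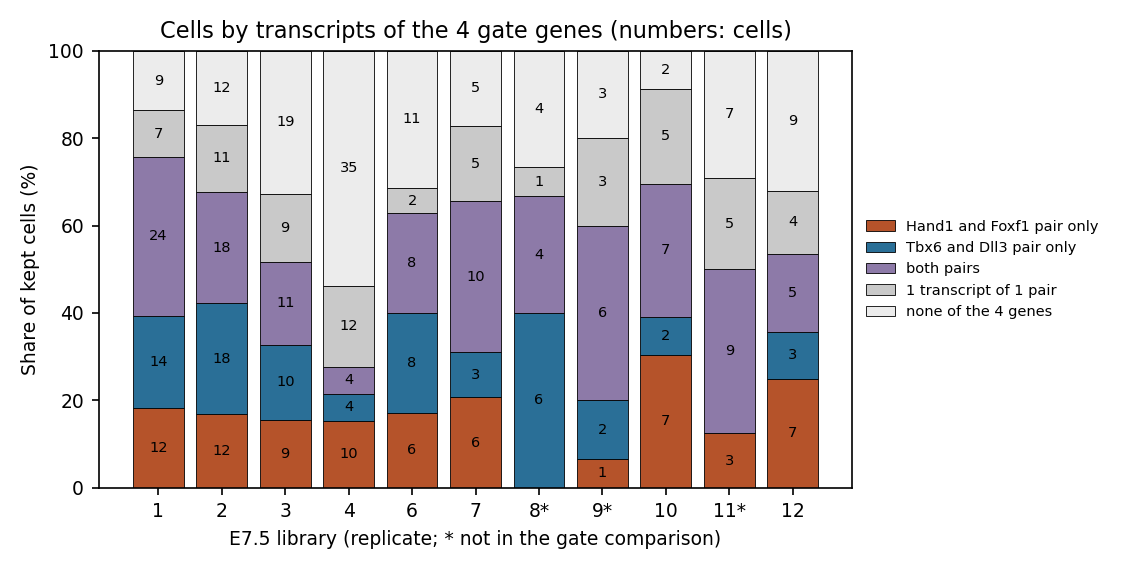
Share of kept cells (%, vertical axis) by transcripts of the gate genes in each of the 11 E7.5 libraries with kept cells (horizontal axis, replicate number), with numbers of cells written in the bars. Lateral gate cells (orange) range from 0 to 12 per library and paraxial gate cells (blue) from 0 to 18, and cells with both pairs (purple) are present in every library shown.

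Of the 12 libraries, 8 held at least 2 cells of each gate and entered the comparison, with 69 lateral and 62 paraxial cells. Their sums held 2003862 and 2202740 transcripts. Replicate 5 had no kept cell, and replicates 8, 9 and 11 held too few cells of at least 1 gate. Replicate 10 stood apart: its paraxial sum came from 2 cells and 8742 transcripts, against 93999 to 606470 in the other 7 libraries. The median mitochondrial share of those 2 cells was 41.8%, and their sum had a scaling factor of 1.72, against 0.919 to 1.02 for the other 15 sums. The comparison is therefore given with and without replicate 10. By their filled columns, 3 of the 8 libraries shared the first 96 cell barcodes and 5 the other 96.

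Between the gates, no difference in depth, mitochondrial share or genes detected passed a test over the 8 libraries. The within-library difference, lateral minus paraxial, was -0.34 ± 0.87 (SD, n = 8) in log2 median transcripts, with p = 0.320 in an exact two-sided sign-flip permutation test whose smallest possible value is 0.00781. Without replicate 10 it was -0.62, with an exact p of 0.0156, so lateral cells were the shallower ones in the other 7 libraries. The mitochondrial share differed by -4.00 ± 11.4 percentage points (SD, n = 8, exact p = 0.484), and by -0.019 without replicate 10, whose paraxial median was 41.8%. With every cell thinned to 2000 transcripts, lateral cells showed 1.52 fewer genes (SD 19.2, n = 8, exact p = 0.695).

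Marker genes outside the gate sorted with the labels, although not cleanly. The 10 lateral and extraembryonic markers other than Hand1 and Foxf1 (among them Bmp4, Pmp22, Gata4 and Msx2) summed to 605 to 2445 CPM, the usual transcript count scaled for depth, over the 8 lateral sums and to 40.0 to 286 CPM over the paraxial sums. At least 2 of their transcripts were present in 63 of 69 lateral and 32 of 62 paraxial cells. The 8 paraxial markers other than Tbx6 and Dll3 summed to 185 to 1316 CPM in paraxial and 9.90 to 44.8 CPM in lateral sums, with at least 2 transcripts in 51 of 62 paraxial and 9 of 69 lateral cells. The ranges of both sums were apart. Several of these markers, such as Bmp4, Pmp22, Dll1 and Hes7, are also among the genes with the largest differences below. The lists were chosen with earlier results of these data known, so the sums describe the gates and are no separate support for their names. The paraxial sum of replicate 10 holds 2 cells and 8742 transcripts, so a few transcripts there can set an end of a paraxial range. Some defining paraxial markers were scarce in the paraxial gate: Msgn1, a presomitic factor, gave 19 transcripts in all, and the somite factors Meox1 and Tcf15 gave 21 and 41.

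Markers of other cell types were present in both gates. Here too, a few transcripts in the 2 paraxial cells of replicate 10 can set an end of a paraxial range. At least 2 transcripts of primitive streak markers (T, Mixl1, Eomes, Evx1 and Nodal) were found in 58 of 62 paraxial and 33 of 69 lateral cells, with summed levels of 143 to 2789 CPM and 70.3 to 1033 CPM. Epiblast and neural markers (Sox2, Utf1, Pou3f1, Otx2, Epcam and Cdh1) reached 2 transcripts in 59 of 62 paraxial and 32 of 69 lateral cells, with 214 to 1152 CPM and 31.4 to 1551 CPM. Node and definitive endoderm markers did so in 24 of 62 paraxial and 9 of 69 lateral cells, and Noto was at 0 in the lateral gate. Blood and endothelial markers (Kdr, Etv2, Tal1, Lmo2, Pecam1, Cdh5 and Gata1) did so in 25 of 69 lateral and 25 of 62 paraxial cells, with 34.2 to 782 CPM and 14.2 to 214 CPM, and Pecam1 and Cdh5 were at 0 in the paraxial gate. Visceral endoderm markers reached 2 transcripts in 1 cell of each gate, with Apoa4 and Afp at 0 in both. Extraembryonic ectoderm markers did so in 6 of 69 lateral and 3 of 62 paraxial cells, with Elf5, Esrrb and Wnt7b at 0 in the paraxial gate. The part of these cells in the gene differences below was not tested beyond the alternatives named there.

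Transcripts of each library and gate were summed and compared with limma-voom, with the library as a block and Benjamini-Hochberg adjustment at 0.05. Of 5845 genes tested, 551 (9.43%) differed: 273 (4.67%) were higher in the lateral gate and 278 (4.76%) in the paraxial gate. The median log2 fold change over the tested genes was -0.000564. Between the sums of the gates, fewer expressing cells and less RNA per cell cannot be told apart. In 238 genes (4.07%) all 8 libraries gave the same direction. The library ranges of the gates did not overlap in 44 genes (0.753%), 36 with the lateral gate above (0.616%) and 8 with the paraxial gate above (0.137%).

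The number of calls leaned on single libraries. It was 624 without replicate 10, 353 without replicate 1 and 311 without replicate 2, the pair of libraries with the most gated cells. A filter on low counts that asks for a gene in as many sums as a gate has left 189 of 3939 genes called, all of them among the 551. Without the library as a block 313 genes were called, 298 of them among the 551. Limma-trend called 200 genes, 119 of them higher in the paraxial gate.

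**Figure D2:**
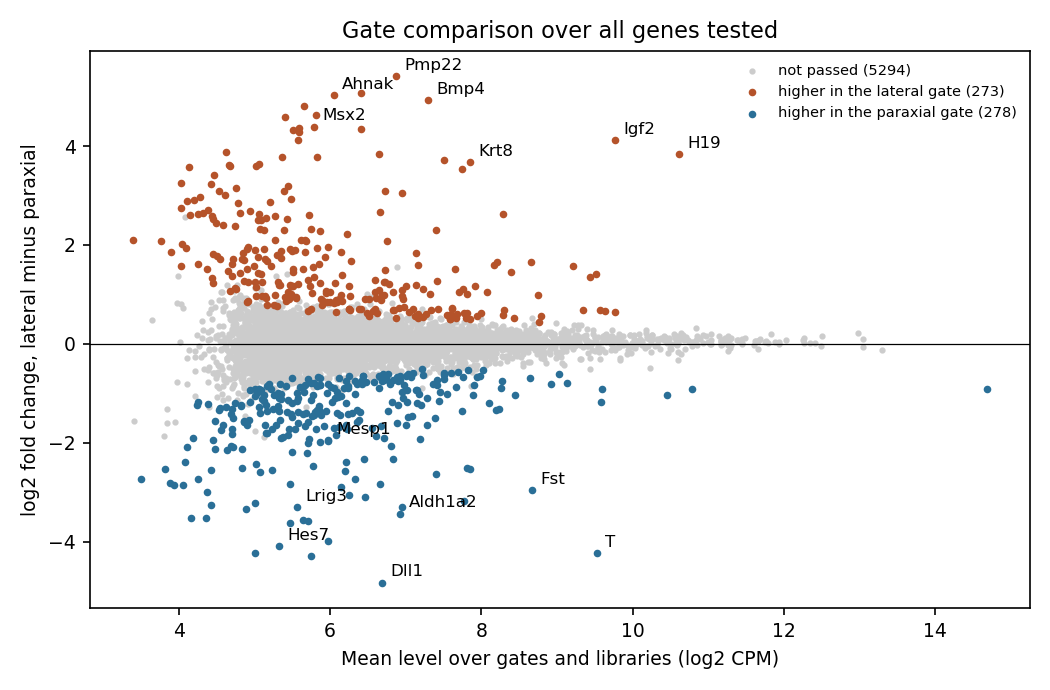
Log2 fold change, lateral minus paraxial (vertical axis), against mean level in log2 CPM (horizontal axis) for the 5845 genes tested, each point 1 gene. The 273 genes higher in the lateral gate (orange) reach 5.42 and the 278 higher in the paraxial gate (blue) reach -4.83, and 5294 genes (grey) did not pass.

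The 12 genes with the largest excess in the lateral gate encode a growth factor, transcription factors, guidance receptors and matrix and membrane proteins. Pmp22, a membrane protein gene first known from peripheral myelin, lay between 28.0 and 578 CPM in the lateral sums (median 183) and between 0 and 11.6 CPM in the paraxial sums (median 2.49). Its log2 fold change was 5.42 ± 0.43 (SE, n = 8 libraries, limma-voom adjusted p = 4.97e-08). Bmp4, the BMP ligand that patterns mesoderm, ran from 164 to 524 CPM (median 269) in lateral and from 0 to 71.4 CPM (median 11.4) in paraxial sums, a log2 fold change of 4.93 ± 0.37 (SE, n = 8, limma-voom adjusted p = 2.08e-08). The upper paraxial value of Bmp4 was a lone transcript of replicate 10, and the ranges of both genes were apart in the 8 libraries.

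Transcription regulators made up 4 of the 12 genes. Tbx20, a T-box gene of heart and lateral mesoderm, was at 22.4 to 142 CPM in lateral and 0 to 4.16 CPM in paraxial sums. Msx2, a homeobox gene and a known BMP target, was at 37.5 to 168 against 0 to 9.19 CPM. Tbx3, a T-box gene of heart and extraembryonic tissues, was at 28.0 to 217 against 0 to 3.60 CPM. Their log2 fold changes were 4.33, 4.39 and 4.36, and no library range overlapped. Prdm6, a regulator of smooth muscle genes, was the most one-sided, with 211 transcripts in the lateral and 1 in the paraxial gate (ratio of pooled levels 232, 95% counting interval 41.2 to 9204).

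Of the other genes in the set, Ahnak, which encodes a very large scaffold protein, gave 276 against 3 transcripts (ratio 101, counting interval 34.2 to 493). Unc5c, a netrin receptor, gave 189 against 2 (ratio 104, counting interval 28.4 to 864). Counting intervals cover counting error only. Col1a1, the main chain of type I collagen, had 11.2 to 403 CPM against 0 to 6.24 CPM. Stard8, a GTPase-activating protein, had 23.4 to 469 against 0 to 14.2 CPM, and Morc4, a nuclear ATPase, 42.1 to 202 against 0 to 6.16 CPM. Nrp1, a receptor for semaphorins and VEGF, was the member whose ranges overlapped, at 16.8 to 393 against 0 to 34.8 CPM. Antisense genes overlap Bmp4, Unc5c and Tbx3 in the annotation, and without a stated use of strand their reads cannot be told apart.

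The 12 genes with the largest excess in the paraxial gate include Notch, T-box and NODAL pathway genes. Dll1, the Notch ligand needed for somite formation, was at 9.95 to 652 CPM (median 138) in the paraxial sums and at 0 in 5 of 8 lateral sums, with a highest value of 16.8 CPM. Its log2 fold change was -4.83 ± 0.50 (SE, n = 8, limma-voom adjusted p = 1.58e-06), and 8 of 8 libraries had the paraxial gate higher. T, the streak and notochord T-box factor Brachyury, had a median of 1305 CPM (0 to 2406) in paraxial and 46.0 CPM (17.1 to 764) in lateral sums. The paraxial value of 0 was replicate 10 and the lateral value of 764 was replicate 6, so the ranges overlapped, while the other 7 libraries had T higher in the paraxial gate. Hes7, the oscillating repressor of the segmentation clock, had a median of 85.4 CPM (0 to 147) against 3.58 CPM (0 to 7.27), with 176 transcripts against 5.

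Aldh1a2, which makes retinoic acid, ran from 0 to 1094 CPM (median 114) in paraxial and from 0 to 49.5 CPM (median 9.92) in lateral sums. Lrig3, a transmembrane regulator of receptor signalling, was the member whose ranges were apart, at 37.9 to 143 against 0 to 11.2 CPM. Its relative Lrig1, a restrainer of growth factor receptors, had a median of 43.1 against 0 CPM. Lefty2, a secreted NODAL antagonist of mesoderm, had a median of 239 against 2.34 CPM and Tdgf1, the NODAL co-receptor Cripto, 61.4 against 9.64 CPM. Pcdh8, a protocadherin of paraxial mesoderm, had a median of 62.0 against 0 CPM, and Pcdh19, another protocadherin, 260 against 19.5 CPM. Gal, the galanin neuropeptide gene, had 201 against 13 transcripts, and Psors1c2, a gene of the major histocompatibility region, 132 against 10. Dll1, Hes7, Aldh1a2, Pcdh8, Pcdh19 and Lrig1 overlap a gene on the opposite strand in the annotation. The log2 fold changes of Pcdh8, Gal, Aldh1a2, Lrig1, Lrig3, Lefty2, Psors1c2, Pcdh19 and Tdgf1 ran from -3.11 for Tdgf1 to -4.00 for Pcdh8.

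All 24 genes kept their call when each library was left out in turn, with a highest adjusted p of 0.00420 (limma-voom, Pcdh8 without replicate 12). With the stricter filter, in as many sums as a gate has, only 5 of the 24 were tested, and these 5 passed. They were Bmp4, T, Aldh1a2, Lefty2 and Pcdh19. The others were tested only under the looser filter, which a gene high in either gate alone could pass. Without the library block, Col1a1, Dll1, Pcdh8, Gal, Lefty2, Pcdh19 and Tdgf1 no longer passed, with adjusted p from 0.0928 to 0.453 in limma-voom.

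**Figure D3:**
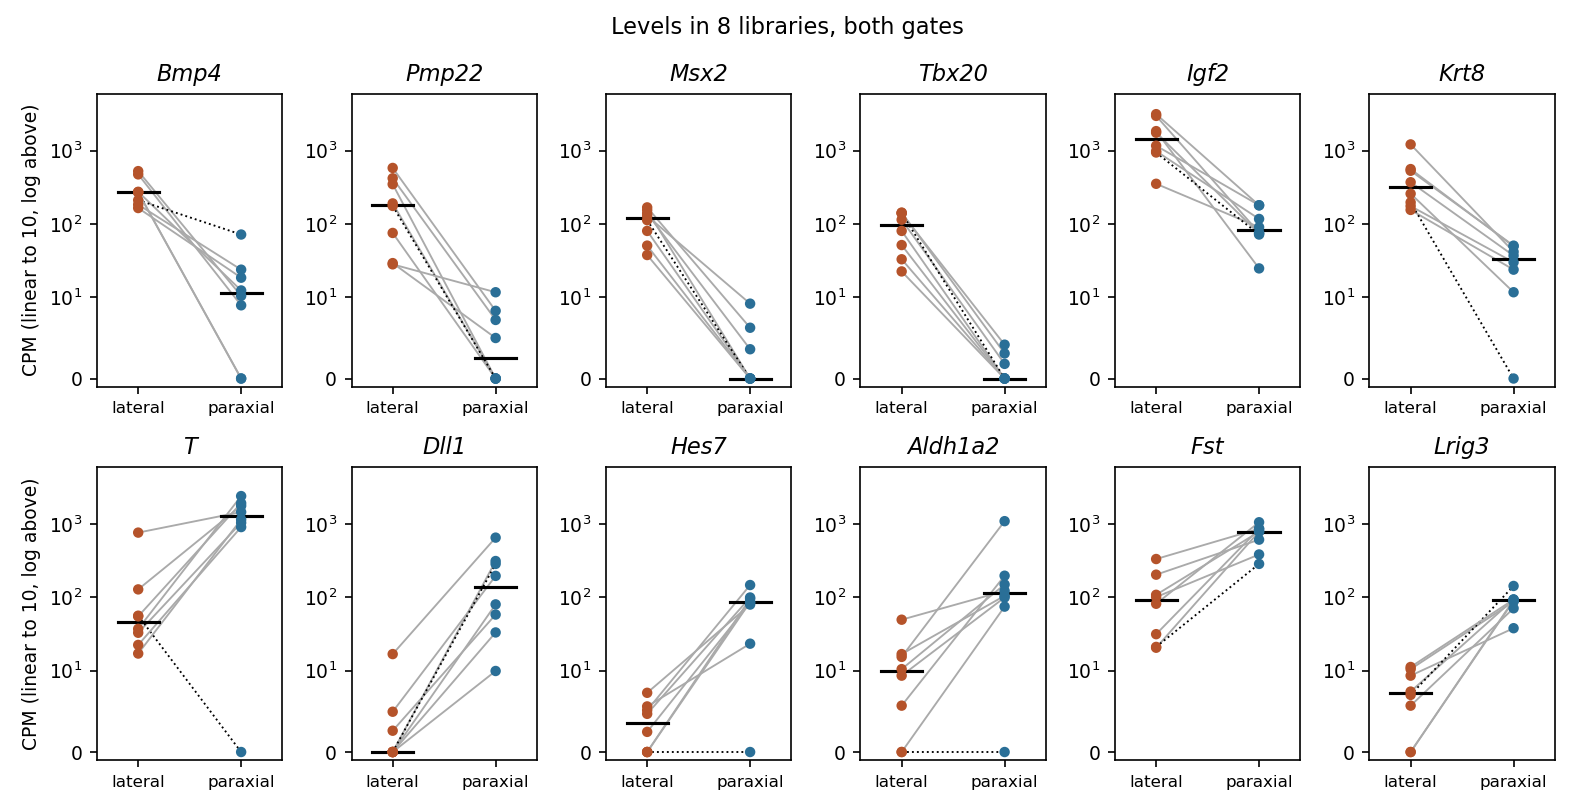
Level in CPM (vertical axis, linear to 10 and logarithmic above) of 12 genes in the lateral and paraxial sums of the 8 libraries, with lines joining the sums of 1 library, a dotted line for replicate 10 and bars for medians. Bmp4, Pmp22, Msx2, Tbx20, Igf2 and Krt8 are higher in every lateral sum, while T, Hes7 and Aldh1a2 are at 0 in the paraxial sum of replicate 10, which holds 2 cells.

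Because the T, Hes7 and Bmp4 results open the Brachyury, Notch and BMP pathways, the sequence upstream of each gene is shown from the RefSeq promoter table (GRCm38.p6), reading 5′ to 3′ on the gene's strand. The T and Bmp4 stretches end at the RefSeq start, and the Hes7 stretch ends upstream of it, where the gene begins in the GENCODE annotation. The stretches are chr17:8434173-8434422 (plus strand, upstream of T), chr11:69120203-69120403 (plus strand, upstream of Hes7) and chr14:46390670-46390919 (minus strand, upstream of Bmp4). Capitals mark a match to a searched motif: a TCF and LEF match, TCAAAG (the reverse complement of the searched CTTTGA), that starts 234 bases before the T start, and an RBPJ match, TTCCCAC (the reverse complement of GTGGGAA), that starts 131 bases before the end of the Hes7 stretch and 180 bases before the RefSeq start.
T: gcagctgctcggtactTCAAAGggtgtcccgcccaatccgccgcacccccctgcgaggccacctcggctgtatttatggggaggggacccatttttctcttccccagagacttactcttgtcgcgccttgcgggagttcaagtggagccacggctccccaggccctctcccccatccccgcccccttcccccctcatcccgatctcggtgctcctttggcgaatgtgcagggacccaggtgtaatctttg
Hes7: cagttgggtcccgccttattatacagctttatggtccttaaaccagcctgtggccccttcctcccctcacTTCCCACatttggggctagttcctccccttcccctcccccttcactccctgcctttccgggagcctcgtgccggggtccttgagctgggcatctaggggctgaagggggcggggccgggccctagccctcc
Bmp4: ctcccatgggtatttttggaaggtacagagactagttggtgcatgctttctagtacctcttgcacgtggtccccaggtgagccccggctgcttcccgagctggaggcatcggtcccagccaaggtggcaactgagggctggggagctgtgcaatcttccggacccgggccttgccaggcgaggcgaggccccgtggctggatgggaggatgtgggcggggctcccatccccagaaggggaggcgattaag
In the Bmp4 stretch none of the 5 searched motifs was found. The motifs were GTGGGAA for RBPJ, GGTGTGA for T-box factors, CTTTGA for TCF and LEF, AGATAA for GATA factors and GGCGCC for SMADs, on both strands. Of 27025 RefSeq genes, 6.18% held the RBPJ letters in the 250 bases before the start, 3.84% the T-box, 15.8% the TCF and LEF, 11.4% the GATA and 10.8% the SMAD letters. Of the 24 genes above, 20 had an entry in the table. Among these, RBPJ letters were found for Ahnak and Hes7, T-box letters for Psors1c2, TCF and LEF letters for Morc4, Stard8 and T, SMAD letters for Pmp22, Unc5c, Aldh1a2, Dll1 and Lrig3, and GATA letters for none. A match is a description of the letters, not a site.

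The share of cells with a transcript of these 24 genes kept its direction at each depth examined, and no gene passed after adjustment at the common depth of 2000 transcripts. The 24 genes were chosen in the same cells, for large differences with the same sign in at least 80 percent of libraries. The direction of the shares is therefore no separate support, and the adjustment does not cover that choice. With cells thinned to 2000 transcripts, T was seen in 61.1% ± 25.6 (SD, n = 8 libraries) of paraxial and 12.4% ± 22.6 of lateral cells. Bmp4 was seen in 34.7% ± 14.3 of lateral and 1.25% ± 3.54 of paraxial cells, and Pcdh19 in 40.7% ± 35.4 of paraxial and 3.87% ± 7.19 of lateral cells. In the exact sign-flip permutation test over 8 libraries, 13 of 24 differences had an unadjusted p under 0.05, 0 passed after Benjamini-Hochberg adjustment, and the smallest adjusted p was 0.0577. Without thinning, 21 passed, and at a depth of 5000 transcripts 18 passed. Unthinned, Bmp4 was seen in 73.3% of lateral and 28.2% of paraxial cells, and T in 75.3% of paraxial and 51.1% of lateral cells.

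Of the BMP pathway genes, the ligands Bmp4 and Bmp2, the inhibitory SMADs and the targets Id1 and Id3 were higher in the lateral gate, and the secreted antagonist Fst was higher in the paraxial gate. BMP ligands bind paired receptors that activate SMAD1 and SMAD5, which switch on Id genes and their own inhibitors. Of 21 pathway genes tested of 31 listed, 7 were higher in the lateral gate, 4 in the paraxial gate and 10 did not pass, with a median log2 fold change of 0.16. A gene high in either gate alone could enter the test, so such counts describe the tested members and not the list as a whole. For this and the later lists, the shares over all 5845 genes tested were 4.67% higher in the lateral gate and 4.76% in the paraxial gate.

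Beside Bmp4, Bmp2, a second ligand, was at 4.69 to 236 CPM (median 43.9) in lateral and 0 to 18.7 CPM (median 9.33) in paraxial sums. Smad6, an inhibitory SMAD, was at 14.5 to 98.2 against 0 to 24.6 CPM and was higher in the lateral gate in 8 of 8 libraries, with a log2 fold change of 2.55 ± 0.37 (SE, n = 8, limma-voom adjusted p = 8.26e-05). Smad7, the other inhibitory SMAD, had a log2 fold change of 2.64, Bambi, a decoy receptor, 1.72, Id3, a target gene, 1.65, and Id1, a further target, 1.10. Id1 did not pass without the lateral cells that lacked Foxf1 (limma-voom adjusted p = 0.0617). Id2 had a log2 fold change of 1.55 and did not pass (limma-voom adjusted p = 0.0527). Bmp7, a further ligand, had 0.00094 and did not pass.

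On the antagonist side, Fst, the secreted activin and BMP binder follistatin, ran from 286 to 1057 CPM (median 788) in paraxial and from 20.5 to 333 CPM (median 91.2) in lateral sums. Each library had Fst higher in the paraxial gate, with a log2 fold change of -2.96 ± 0.33 (SE, n = 8, limma-voom adjusted p = 3.81e-06). The receptors Bmpr1a and Bmpr2 and the effector Smad1 did not pass, at 0.39, 0.32 and -0.01. Acvr2b, an activin receptor, and Nog, the BMP antagonist noggin, were called higher in the paraxial gate (log2 fold changes -0.67 and -1.24). Without the library block 7 of the 11 called genes passed, and Bmp2 did not (limma-voom adjusted p = 0.221). Acvr2b kept its call in 5 of 8 fits that left out a library, and lost it without replicate 1, 2 or 7 (limma-voom adjusted p up to 0.0810). Nog kept its call in 1 of the 6 such fits that tested it, and lost it without replicate 1, 4, 6, 7 or 10 (up to 0.0796).

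FGF pathway genes were mostly higher in the paraxial gate, and the receptors differed from each other. FGFs act through receptor tyrosine kinases and the MAP kinase cascade, which turns on ETS factors and feedback inhibitors. Of 16 genes tested of 25 listed, 9 were higher in the paraxial gate, 2 in the lateral gate and 5 did not pass, with a median log2 fold change of -1.04. Fgf4, a streak ligand, gave 96 against 4 transcripts, with a median of 40.2 CPM in paraxial and 0 CPM in lateral sums. Fgf8, the main ligand of the streak, had 18 transcripts against 1 and was not tested. Fgfr1, the mesoderm receptor, had a median of 294 against 201 CPM and was higher in the paraxial gate in 8 of 8 libraries (log2 fold change -0.68). Fgfr2 and Fgfr3, the other receptors tested, were higher in the lateral gate, with log2 fold changes of 1.90 and 2.40. Neither passed in limma-trend (adjusted p = 0.246 and 0.310), and Fgfr1 did not pass without the library block (limma-voom adjusted p = 0.0940).

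Several pathway targets were higher in the paraxial gate, and others did not pass. Etv1, an ETS factor, was at 47.4 to 143 CPM in paraxial and 0 to 37.5 CPM in lateral sums, ranges that were apart, with a log2 fold change of -1.92 ± 0.32 (SE, n = 8, limma-voom adjusted p = 0.000340). Etv5, a related ETS factor, had -1.68, Dusp6, a phosphatase of the MAP kinase, -1.40 and Spred2, a feedback inhibitor, -0.98. The feedback inhibitors Spry4, Spred1 and Dusp4 did not pass, at -1.10, -0.45 and -0.30 (limma-voom adjusted p = 0.187, 0.312 and 0.649). Fgf5, Spry2 and Il17rd were also called, and each lost the call in at least 1 fit that left out a library, with adjusted p up to 0.101 (without replicate 2), 0.121 (without replicate 2, and also lost without 3, 4 or 6) and 0.0742 (without replicate 1) in limma-voom. Without the library block 7 of the 11 called genes passed, and in limma-trend 4 of the 11.

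WNT pathway genes that passed were all higher in the paraxial gate. WNT ligands stabilise beta-catenin, which acts with TCF and LEF factors at genes of the posterior streak. Of 19 genes tested of 35 listed, 7 were higher in the paraxial gate, 0 in the lateral gate and 12 did not pass, with a median log2 fold change of -0.70. Sp5, a direct WNT target, had a median of 164 CPM (0 to 274) in paraxial and 18.3 CPM (0 to 62.7) in lateral sums, with a log2 fold change of -2.73 ± 0.31 (SE, n = 8, limma-voom adjusted p = 4.71e-06). Sp8, its relative, had -1.73, Frzb, a secreted WNT antagonist, -2.89, and Fzd2, a receptor, -0.81. Frzb was higher in the paraxial gate in 5 of 8 libraries and higher in the lateral gate in 3. Wnt3a, the ligand of the posterior streak, gave 66 against 5 transcripts (log2 fold change -2.81) and was too low to be tested in 4 of the 8 fits that left out a library. Wnt3, an earlier streak ligand, had -1.46 and did not pass (limma-voom adjusted p = 0.0560). Lef1 and Rspo3, a co-factor and an enhancer of WNT signalling, lost the call without replicate 4 (limma-voom adjusted p = 0.122 and 0.0737) or 2, Lef1 also without replicate 1 or 12, and 5 of the 7 called genes passed without the library block.

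In the Notch pathway, a ligand, a receptor and a target gene were higher in the paraxial gate. Notch receptors are cut when they bind a ligand on a neighbouring cell, and the freed part acts with RBPJ. Of 10 genes tested of 22 listed, 3 were higher in the paraxial gate, 1 in the lateral gate and 6 did not pass, with a median log2 fold change of 0.06. The receptor Notch1 had a median of 48.4 CPM in paraxial and 16.2 CPM in lateral sums (log2 fold change -1.64). Notch2 and Notch3, further receptors, had 0.49 and -0.14, and the effector Rbpj 0.10, all without passing. Hes1, a Hes gene used in many tissues, had 0.32 and did not pass. Dlk1, an imprinted atypical ligand, was higher in the lateral gate, with 131 against 9 transcripts (log2 fold change 3.60). Without the library block Hes7 and Notch1 passed, and Dll1 and Dlk1 did not (limma-voom adjusted p = 0.130 and 0.0928).

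Retinoic acid is made by ALDH1A2 and cleared by CYP26A1, and it opposes FGF signalling at the segmentation front. Of 7 such genes tested of 21 listed, 3 were higher in the paraxial gate, Aldh1a2 and Cyp26a1 among them, and 4 did not pass. Cyp26a1 lost its call without replicate 2 (limma-voom adjusted p = 0.173) or 10 (0.0862). Of 5 hedgehog pathway genes tested of 14, only the co-receptor Gas1 passed. Its median was 250 CPM in paraxial and 44.9 CPM in lateral sums (log2 fold change -2.63), while Ptch1, the hedgehog receptor, had 0.94 and did not pass (limma-voom adjusted p = 0.123).

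**Figure D4:**
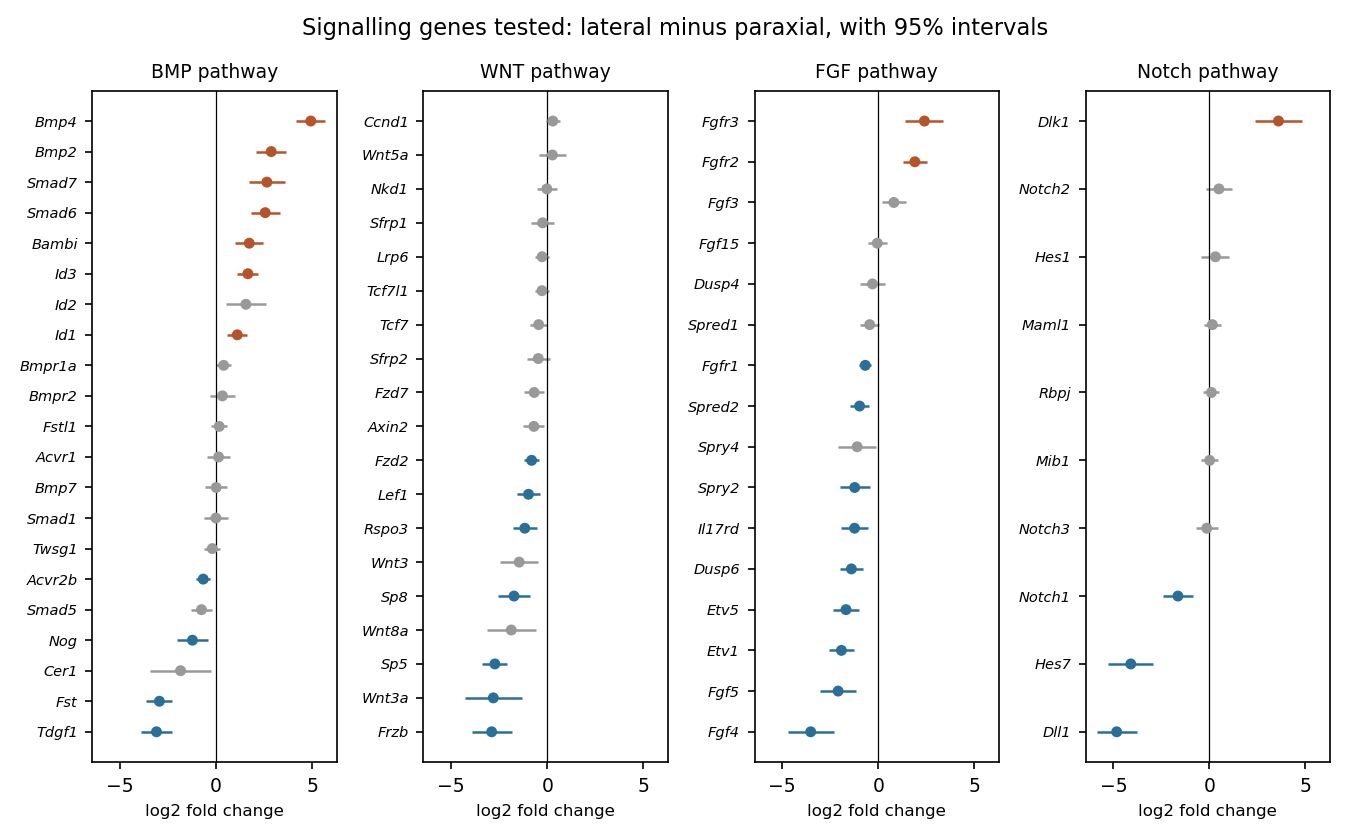
Log2 fold change, lateral minus paraxial (horizontal axis), with its 95% interval for each tested gene (vertical axis) of 4 signalling pathways, orange where higher in the lateral gate, blue where higher in the paraxial gate and grey where not passed. Bmp4, Bmp2, Smad7 and Smad6 lie to the right of 0 with Fst and Tdgf1 to the left, and the genes of the WNT pathway that passed all lie to the left.

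Transcription factors of lateral and heart mesoderm were higher in the lateral gate in 8 of 11 tested genes of 24 listed, 3 did not pass, and the median log2 fold change was 2.57. Beside Tbx20, Tbx3 and Msx2, Msx1, a homeobox BMP target, was at 44.8 to 338 against 0 to 64.7 CPM and was higher in 8 of 8 libraries. Gata4, a zinc finger factor of heart and lateral mesoderm, had 150 against 32 transcripts (log2 fold change 2.30). Gata6, a related factor, was called at 2.28 and lost the call without replicate 2 (limma-voom adjusted p = 0.141) or 1 (0.0619). Hand2, a partner of Hand1 in the heart field, had 56 against 3 transcripts (ratio 20.5, counting interval 6.67 to 102) and did not pass (limma-voom adjusted p = 0.0863). Tead1, a Hippo pathway factor, had 1.27. Twist1, an early mesenchymal factor, had -0.78 and did not pass (limma-voom adjusted p = 0.253). Of the 8 called genes, 5 passed without the library block.

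Paraxial and segmentation factors were higher in the paraxial gate in the 7 tested genes of 20 listed, with a median log2 fold change of -2.85, and the other 13 were too low to test. Foxc1, a forkhead factor of paraxial mesoderm, gave 182 against 4 transcripts, with a median of 59.0 CPM (0 to 315) in paraxial and 1.31 CPM (0 to 7.01) in lateral sums. Foxc2, its close relative, gave 182 against 9. Snai1, a driver of epithelial to mesenchymal transition, differed less, at 27.6 to 144 against 11.2 to 56.1 CPM. Mesp2, which sets segment borders, gave 31 transcripts against 1 and was untested without replicate 10 or 12. Mesp1, a factor of early mesoderm that also marks heart precursors, had a log2 fold change of -1.94 and lost the call without replicate 6 (limma-voom adjusted p = 0.0530). Foxc2 overlaps another annotated gene on its strand, so its reads may be shared. Cited1, a co-activator, lost its call without replicate 2 (limma-voom adjusted p = 0.313), 1, 3, 4 or 6, and Snai1 was the 1 gene of the 7 that passed without the library block (Foxc1 0.379, Foxc2 0.404).

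Hox and Cdx genes mark position along the body axis. Hoxb1, an anterior Hox gene, had a median of 338 CPM in paraxial and 44.0 CPM in lateral sums (log2 fold change -2.54 ± 0.29, SE, n = 8, limma-voom adjusted p = 4.18e-06). Hoxb6, a more posterior gene known from lateral mesoderm, went the other way, with 86 transcripts in the lateral gate and 2 in the paraxial gate (ratio 47.3, counting interval 12.7 to 397). Hoxb6 passed in 6 of 6 fits that left out a library and tested it, and was too low to test without replicate 1 or 2. It did not pass without the library block (limma-voom adjusted p = 0.0529) or in limma-trend, which models the spread by mean level (0.259). Only 5 of 26 listed genes were tested, 1 of the 4 called passed without the library block, and Cdx1, a caudal factor, lost its call without replicate 1 (limma-voom adjusted p = 0.0800) or 2 (0.0599).

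Genes of extraembryonic mesoderm and allantois were higher in the lateral gate in 9 of 10 tested genes of 22 listed, with a median log2 fold change of 3.84. The most abundant were the imprinted neighbours Igf2, a fetal growth factor, and H19, a long non-coding RNA. Igf2 was at 352 to 3136 CPM (median 1457) in lateral and 24.6 to 179 CPM (median 82.8) in paraxial sums, with a log2 fold change of 4.12 ± 0.32 (SE, n = 8, limma-voom adjusted p = 3.01e-08). H19 was at 886 to 5298 against 64.7 to 448 CPM, a log2 fold change of 3.84. Their ranges were apart, as were those of Spin2c, a spindlin family gene. The imprinted growth restrainers Phlda2 and Cdkn1c had 1.41 and 1.60. Cdx2, a caudal factor of allantois and trophectoderm, had 0.50 and did not pass (limma-voom adjusted p = 0.312). Of the 9 called genes, 7 passed without the library block. Igf2 overlaps an antisense gene and a second gene in the annotation.

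Of the extraembryonic ectoderm genes, 5 were tested of 10 listed: the keratins Krt8 and Krt18 and Rhox5 were higher in the lateral gate, Eomes was higher in the paraxial gate and 1 did not pass. Krt8, a simple epithelial keratin, was at 155 to 1212 CPM in lateral and 0 to 50.4 CPM in paraxial sums, and its partner Krt18 at 108 to 832 against 0 to 86.2 CPM, both with ranges apart. Rhox5, a homeobox gene of extraembryonic tissue, reached 538 CPM in 1 lateral sum with a median of 15.0 CPM, and gave 169 against 3 transcripts. It did not pass without the library block (limma-voom adjusted p = 0.532) or in limma-trend (0.470). Apoe, Lrp2 and Dab2, genes of lipid transport and endocytosis that visceral endoderm also uses, were called higher in the lateral gate. None of them passed in limma-trend (adjusted p = 0.0784, 0.298 and 0.372). Without the library block Lrp2 passed, and Apoe and Dab2 did not (limma-voom adjusted p = 0.219 and 0.0938). The defining visceral endoderm genes Apoa4 and Afp were at 0 in both gates, and Apoe lost its call without replicate 2 (limma-voom adjusted p = 0.191), 4, 6 or 12.

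Streak, epiblast and node genes were higher in the paraxial gate where they passed. Of 10 tested streak genes of 13 listed, 8 were higher in the paraxial gate and 2 did not pass, with a median log2 fold change of -1.95. Mixl1, a homeobox gene of the streak, gave 233 against 21 transcripts. Lhx1, a LIM factor of streak-derived mesoderm, was higher in the paraxial gate in 8 of 8 libraries (log2 fold change -1.96). Of 13 tested epiblast and neural genes of 16 listed, 5 were higher in the paraxial gate. Sox2, Utf1 and Otx2, factors of epiblast and neural ectoderm, did not pass, at 0.64, 0.61 and -0.45.

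The pluripotency factor Pou5f1 was higher in the paraxial gate (log2 fold change -1.33) and passed in every fit that left out a library, with a highest adjusted p of 0.0485 in limma-voom. Nanog, Cdh1, Eomes and Fgf5 lost their calls in at least 1 such fit, with adjusted p of 0.218 without replicate 7 for Nanog (lost without 7 of the 8 libraries, all but replicate 6), 0.0790 without replicate 6 for Eomes, and 0.0946 and 0.101 without replicate 2 for Cdh1 (also lost without replicate 1) and Fgf5. When the library block was dropped, 4 of the 8 called streak genes and 3 of the 5 epiblast genes passed, and 0 of the 3 called node and endoderm genes (Foxa2, Foxj1 and Nog), which did not pass in limma-trend either. Foxa2, a factor of node and endoderm, gave 111 transcripts in 14 paraxial cells and 3 in the lateral gate. Foxj1, the factor for motile cilia of the node, gave 207 transcripts in 15 paraxial cells and 3 in the lateral gate. Without the block the limma-voom adjusted p was 0.0719 for Foxa2 and 0.223 for Foxj1. These node genes were therefore carried by a minority of paraxial cells. After cells with 1 or more T transcripts were removed, 2 libraries with 11 lateral and 4 paraxial cells were left, 0 of 1260 genes passed and 159 had an unadjusted p under 0.05, on 1 residual degree of freedom.

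Blood and endothelial genes were higher in the lateral gate in 5 of 7 tested genes of 22 listed. Etv2, the factor that starts both lineages, had 196 against 14 transcripts in 21 and 11 cells (log2 fold change 3.78 ± 0.42, SE, n = 8, limma-voom adjusted p = 4.18e-06). Kdr, the VEGF receptor of their precursors, had a median of 46.3 against 5.07 CPM. Tal1, a blood factor, had 122 transcripts in 7 lateral cells and 4 in the paraxial gate. Gata2, a progenitor factor, gave 106 against 3. Lmo2, a partner of Tal1, had -0.13 and did not pass. Flt1, a second VEGF receptor, lost its call without replicate 1 (limma-voom adjusted p = 0.209), 2 or 4. None of the 5 called genes passed without the library block, with limma-voom adjusted p from 0.0662 for Gata2 to 0.227 for Flt1.

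At least 2 transcripts of Etv2, Tal1, Gata1, Pecam1, Cdh5 and Itga2b together were found in 16 of 73 lateral cells (21.9%). In the paraxial gate they were found in 4 of 70 cells (5.71%). Cells were pooled over libraries here, and the difference between the gates was not tested. The contrast in cell numbers depended on the list: with the 7 markers that include Kdr and Lmo2, the shares were 36.2% of 69 lateral and 40.3% of 62 paraxial cells, and 24 of the 48 cells with Tbx6 and Dll3 held 2 such transcripts. Without the cells that held at least 2 transcripts of Etv2, Tal1, Gata1, Pecam1, Cdh5 and Itga2b, 343 of 5447 genes were called. Of these, 324 were among the 551. The 24 genes with the largest differences all passed, and Kdr, Etv2, Tal1 and Gata2 were then too low to test. Etv2 and Tal1 are among the genes that chose the removed cells, so their loss was fixed in advance. Of the 93 listed or named genes that passed in all 8 fits leaving out a library, 3 did not pass: Pou5f1, Fzd2 and Amot, a Hippo pathway scaffold, with limma-voom adjusted p of 0.127, 0.0714 and 0.0852. A further 6 were too low to test: Kdr, Etv2, Tal1, Gata2, Foxa2 and Ntn1.

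Matrix and adhesion genes went in both directions. Of 23 tested of 38 listed, 10 were higher in the lateral gate, 5 in the paraxial gate and 8 did not pass. Of those 15, 7 kept the call in each of the 8 fits that left out a library (Col1a1, Pcdh8, Pcdh19, Sparc, Vim, Podxl and Cdh2), and 5 passed without the library block. Sparc, a collagen-binding matrix protein, was at 220 to 636 CPM in lateral and 46.0 to 182 CPM in paraxial sums, ranges that were apart (log2 fold change 1.59 ± 0.22, SE, n = 8, limma-voom adjusted p = 5.39e-05). Vim, the mesenchymal intermediate filament vimentin, was at 213 to 1052 against 0 to 267 CPM, and Podxl, a surface sialomucin, at 196 to 1191 against 34.9 to 214 CPM. Fn1, fibronectin, had -0.29 and did not pass (limma-voom adjusted p = 0.687). Cdh2, N-cadherin, was higher in the paraxial gate (log2 fold change -1.25) and had a highest adjusted p of 0.0419 in the fits that left out a library. Without the lateral cells that lacked Foxf1 it did not pass (limma-voom adjusted p = 0.276). The collagen gene Col1a2, Cdh11, Hapln1 and Lamb1 lost the call without replicate 2 (adjusted p = 0.364, 0.0687, 0.0540 and 0.0537), and Vcan and Itgb1 without replicate 1 (0.195 and 0.0844). Col1a2 and Cdh11 also lost it without replicate 1, Itgb1 without replicate 2 or 3, and Vcan without replicate 3.

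Contractile and keratin genes that passed were higher in the lateral gate, 9 of 17 tested of 28 listed. Acta2, smooth muscle actin, gave 172 transcripts in 13 lateral cells and 10 in the paraxial gate. S100a10, a calcium-binding annexin partner, was at 75.0 to 196 CPM against 0 to 44.8 CPM, with ranges apart, and Anxa2, its annexin, had a log2 fold change of 1.91. Tpm1, a tropomyosin, and Cnn2, a calponin, had 1.01 and 1.51. Nonmuscle myosin Myh10 and alpha-actinin Actn1 did not pass, at 0.02 and 0.18. Cald1, caldesmon, lost its call without replicate 1 (limma-voom adjusted p = 0.115) or 2, and 4 of the 9 passed without the library block.

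Guidance and chemokine genes split between the gates, with 4 of 21 tested higher in the lateral gate, 8 in the paraxial gate and 9 not passed, of 35 listed. Epha1, an Eph receptor, was at 68.6 to 120 CPM in paraxial and 0 to 63.1 CPM in lateral sums, ranges that were apart. Epha4, an Eph receptor of somite borders, had a median of 252 against 48.2 CPM and was higher in the paraxial gate in 8 of 8 libraries (log2 fold change -1.92). The ligand Apln had -3.06 and its receptor Aplnr -1.58, so both sides of apelin signalling were higher in the paraxial gate. Ntn1, a netrin ligand, gave 85 transcripts in 38 paraxial cells and 6 in the lateral gate, while its receptor Unc5c was on the lateral side. Pdgfra, a receptor of mesoderm, and its ligand Pdgfa went in opposite directions (-1.16 and 0.88). Both lost the call on leaving out 1 library, with highest limma-voom adjusted p of 0.0802 without replicate 4 (Pdgfra, also lost without 6, 10 or 12) and 0.0996 without replicate 1 (Pdgfa, also lost without 2, 3, 4, 6 or 10). Sema6d, a semaphorin, and Plxna2, a plexin, did so without replicate 2 (0.0920 and 0.101), and 6 of the 12 called genes passed without the library block.

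Most proliferation and glycolysis genes did not pass. Over all genes tested 551 of 5845 (9.43%) were called, so a majority that did not pass is not particular to these lists. Of 23 cell cycle genes tested of 24, 18 did not pass, 4 were higher in the lateral gate and 1 in the paraxial gate, with a median log2 fold change of 0.00272. Mki67 and Top2a, genes of cycling cells, had -0.01 and -0.02 with SE of 0.16 and 0.20. Cdkn1a, the p21 inhibitor of cyclin-dependent kinases, was called higher in the paraxial gate, with 207 against 39 transcripts (log2 fold change -2.20). It was higher there in 4 of 8 libraries and higher in the lateral gate in 2. Cdkn1a did not pass without the library block (limma-voom adjusted p = 0.0562) or in limma-trend (adjusted p = 0.0564). Ccnd3, Cdk1 and Myc, genes that promote division, lost their calls on leaving out 1 library, each with its highest limma-voom adjusted p, 0.0641, 0.191 and 0.332, without replicate 2. Cdk1 also lost its call without replicate 1, 6 or 7. Of 17 glycolysis genes tested of 18, 14 did not pass. The glucose transporter genes Slc2a1 and Slc2a3 were higher in the lateral gate, with medians of 1084 against 322 CPM and 1035 against 255 CPM (log2 fold changes 1.34 and 1.58). Ldhb, a lactate dehydrogenase subunit, was higher in the paraxial gate (-0.94).

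The lateral gate held unlike cells. The 30 cells with Hand1 and no Foxf1 transcript were compared with the 42 cells that held both, as a description with no test, since the split uses the gate genes. Their median depths were close, at 26834 and 26471 transcripts. Pooled Bmp4 was at 119 CPM in cells with Hand1 alone and 467 CPM in cells with both, Pmp22 at 32.2 and 429 CPM, and Igf2 at 730 and 2474 CPM. The 10 lateral markers summed to 324 and 2061 CPM. In reverse, Rhox5 was at 174 and 5.87 CPM, Sox2 at 163 and 6.71 CPM, Utf1 at 154 and 0.839 CPM, and Otx2 at 168 and 15.1 CPM.

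At least 2 transcripts of epiblast and neural markers were present in 23 of 30 cells with Hand1 alone and 12 of 42 with both, and of extraembryonic ectoderm markers in 6 of 30 and 0 of 42. Bmp4 and Pmp22 were thus lower, and the epiblast factors higher, in cells with Hand1 alone. When the lateral cells that lacked Foxf1 were left out, 592 of 3804 genes were called, 341 of them among the 551, with 332 higher in the lateral and 260 in the paraxial gate. Of the 24 genes with the largest differences, 20 could be tested and all 20 passed. This alternative was chosen after the data were seen.

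The paraxial gate varied too. Pooled T was at 1833 CPM in the 48 cells with Tbx6 and Dll3, 1309 CPM in the 8 with Tbx6 alone and 266 CPM in the 14 with Dll3 alone. Hes7 followed Tbx6, at 105, 112 and 5.62 CPM. Dll1 was at 171 CPM in cells with both genes and at 3.40 and 16.9 CPM in the others. Foxc1 was at 117, 0 and 48.7 CPM, and Lefty2 at 220, 0 and 129 CPM. Otx2 was highest in cells with Dll3 alone, at 362 CPM against 36.5 and 44.2 CPM.

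**Figure D5:**
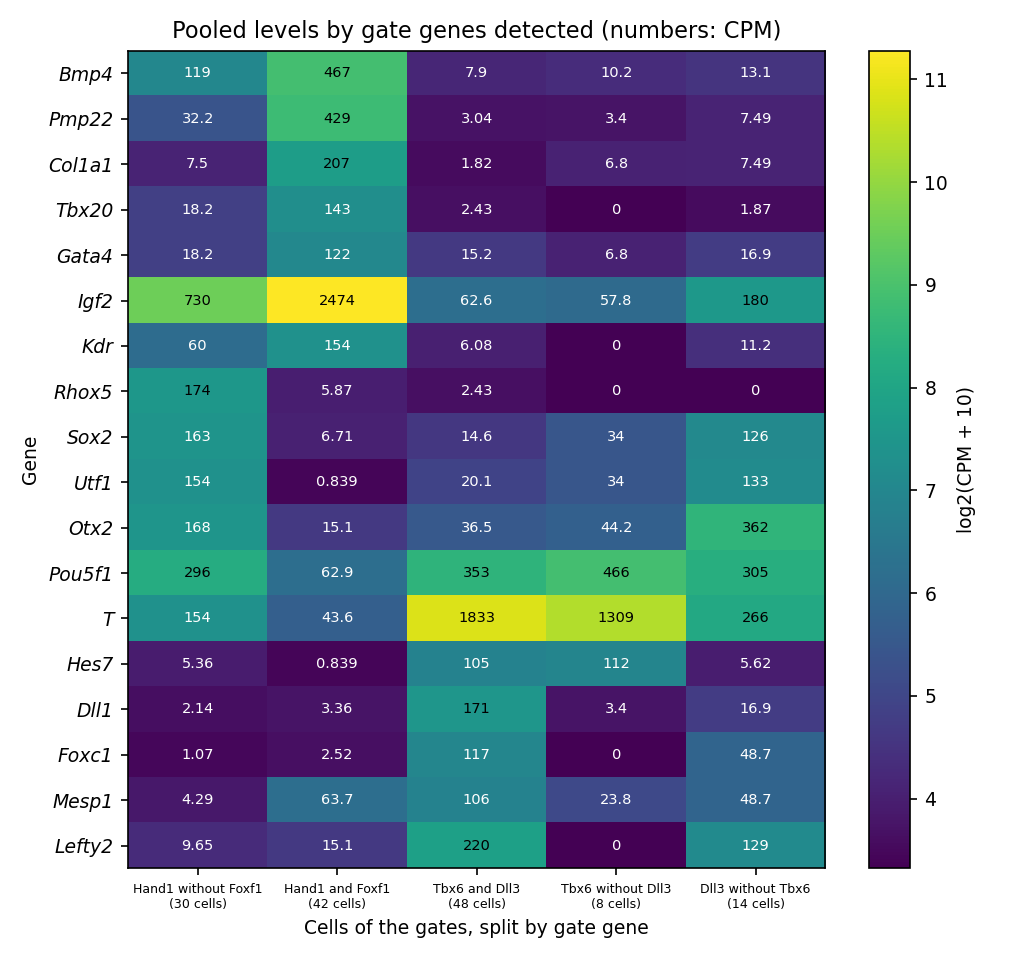
Pooled level (colour, log2 of CPM plus 10, with CPM written in each field) of 18 genes (rows) in cells of the gates split by which gate genes they hold (columns, with numbers of cells). Bmp4, Pmp22 and Igf2 are highest where Hand1 and Foxf1 are both present, T and Hes7 where Tbx6 is present, and Otx2 at 362 CPM where Dll3 is present without Tbx6.

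Cells outside the gates gave intermediate or low levels. In cells of the 8 libraries with both gate pairs, pooled Bmp4 was at 99.2 CPM, T at 579 CPM, Dll1 at 51.8 CPM and Igf2 at 457 CPM, each between the pooled levels of the gates. In cells with none of the 4 genes, Bmp4 was at 15.4 CPM, Dll1 at 5.91 CPM and T at 227 CPM. The 3 libraries left out of the comparison held 4 lateral and 8 paraxial cells. Replicate 8 held 0 lateral and 6 paraxial cells, replicate 11 held 3 and 0, and replicate 9 held 1 and 2. Their pooled contrast is therefore mostly between libraries and not within them. In it, 22 of the 24 genes with the largest differences pointed the same way. The exceptions were Col1a1, at 0 CPM in lateral and 7.39 CPM in paraxial cells, and Tdgf1, at 550 and 118 CPM.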

How the data were processed

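Single cells of mouse embryos were profiled by mCEL-Seq2, a CEL-Seq2 protocol with unique molecular identifiers (UMIs), with 96 used barcodes per library. The authors deposited 1 table per library, and its unit is transcript counts corrected for UMI collisions rather than raw counts: each deposited value is the collision correction of a whole number of UMIs among 4096 possible ones, within 4.09e-12. Per the submitters' processing notes, bcl2fastq 2.17.1.14 and BWA 0.6.2-r126 were used. The genome build and the use of strand are not given in the sources used here. Coordinates come from a mouse annotation of GRCm38, matched by symbol.

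Cells with at least 2000 nuclear transcripts (neither ERCC spike-ins nor mitochondrial) were kept, and 20779 nuclear genes were read. No doublet caller was run, and cells with both gate pairs entered neither gate. Gated cells were summed per library, gate genes removed, rounded and tested with limma 3.58.1 (voom, offset 0.5, R 4.3.3) with TMM-scaled totals and the library as a block, at a Benjamini-Hochberg adjusted p of 0.05. Both sums of a pair come from the same library, which is where the pairing comes from. A library needed 2 cells in each gate. CPM values use the scaled totals. A count model had been planned. The deposited values are collision-corrected transcripts and not raw counts, and voom took its place. The whole UMI numbers recovered from them were also fitted with voom, and not with a count model. A gene was tested if it reached 45.1 CPM in at least 2 of the 16 sums and 15 transcripts in all. This form of the filter was chosen after a stricter one, in as many sums as a gate has, was seen to leave most lineage genes untested: it called 189 of 3939 genes, against 551 of 5845.

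Named genes are the 12 of each direction with the largest log2 fold change among those that passed, with a mean of at least 50 CPM in the higher gate and the same sign in 80 percent of libraries. Genes with systematic Gm or Rik names and ribosomal proteins were left out of that choice. Members of pathway and cell type lists were named as well. Some genes that these rules name are counted but not reported here by name. The gates, members and lists were chosen with earlier results of these data known. Quality measures and cell shares were compared with exact sign-flip permutation tests (numpy 2.4.6, pandas 2.3.3, scipy 1.17.1), and figures used matplotlib 3.10.9. The fit was tested on simulated data. Alternatives covered cell and gate minimums, depth, normalization, filters, the block and each library left out. The 11 E7.5 libraries with kept cells held 15 to 71 of them, and all 12 held 3042 to 2627269 nuclear transcripts.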

Additional observations from a re-analysis of the deposited data

Results flagged for a closer look

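In 141 sets of 8 library values, 8 had a lowest or highest library far from the others, with a gap over the whole range above Dixon's 95% critical value. Chance gives about 1 in 20 sets. Of the 8, 5 lay at replicate 10, whose paraxial sum holds 2 cells. There, the median mitochondrial share of paraxial cells was 41.8% (next library 11.9%), and their log2 median transcripts per cell were 12.1 (next 14.8). The log2 difference, lateral minus paraxial, of Hoxb1 was 2.32 in replicate 10 (next -1.56), that of Itgb1, an integrin chain, was -0.90 (next 0.20), and that of Wnt3 was -6.16 (next -3.20). At that depth 1 transcript corresponds to 71.4 CPM. Elsewhere, Ccnd3 stood at -0.73 in replicate 7 (next 0.90), Myc at -3.70 in replicate 6 (next 0.41) and Ldhb at -2.13 in replicate 1 (next -1.10).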

How the results depend on the processing

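Of 551 genes called, the count was 343 without cells carrying blood or endothelial transcripts, 33 of 384 tested with cells thinned to 2000 transcripts, and 0 of 1260 without cells with T transcripts (2 libraries, 159 at an unadjusted p under 0.05). Leaving out each library gave 311 to 624, with 353 without replicate 1 and 311 without replicate 2. Without the library as a block it was 313, and 17 of the 24 genes with the largest differences passed. Among alternatives chosen after the data were seen, limma-trend called 200, the filter in as many sums as a gate has 189 of 3939, and the fit without lateral cells that lack Foxf1 592. With no filter on low counts 633 of 17574 genes were called, 35.2% of them higher in the lateral gate against 49.5%, and the median log2 fold change was -0.20. Limma-trend gave 40.5%. The other counts ran from 549 to 709. Over 132 called genes and 2664 values, 2371 kept their side of the threshold, 291 no longer passed and 2 changed sign, both without T cells: Fgfr1 at 0.15 and Cdk1 at -0.45. The difference in log2 median transcripts per cell was -0.49 (exact permutation p = 0.0312) at a minimum of 5000 transcripts and ran from -0.62 (without replicate 10) to -0.20 on leaving out a library. The difference in genes detected at 2000 transcripts was 4.64 at that minimum and ran from -5.04 to 2.43 on leaving out a library (2.43 without replicate 7, 2.04 without replicate 12). Of 24 cell shares 0 passed thinned to 2000 transcripts, 18 at 5000 and 21 unthinned. Of the 93 listed or named genes that passed in every fit leaving out a library, 22 did not pass in limma-trend. The causes were not tested. A DESeq2 fit had been intended and was not run. The whole UMI numbers recovered from the deposited values gave 549 of 5876 in limma-voom. Paraxial sums of 2 to 4 cells in replicates 4, 7, 10 and 12, and of 8742 transcripts in replicate 10, limit what low genes can show.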

Other observations

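Genes with systematic names (Gm followed by digits) did not enter the choice of named genes and went one way. Of 131 tested, 21 were higher in the paraxial gate and 0 in the lateral gate. Over all 5845 genes tested, 4.76% were higher in the paraxial gate and 4.67% in the lateral gate. The most abundant, Gm10800, had a mean of 33545 CPM in paraxial and 19128 CPM in lateral sums, with a log2 fold change of -0.92 ± 0.19 (SE, n = 8, limma-voom adjusted p = 0.00282), and was higher in the paraxial gate in 8 of 8 libraries. Gm37900 and Gm10717 had -1.38 and -1.18. What these genes share was not tested.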
